A study of Mus musculus with 5 samples.

Results

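The solute carrier (Slc) genes of 3 mouse cell types were examined plate by plate in single-cell, 5′-tagged mRNA counts. Members were all genes whose name has the form Slc, a family number, the letter a and a member number. The glucose carriers Slc2a1 and Slc2a3 and the lactate carriers Slc16a1 and Slc16a3 were left out, which left 212 members of 15597 genes. The label was met by name except for 4 members (such as Slc9a3r1 and Slc4a1ap) that are proteins named after a carrier and are not carriers themselves.

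Solute carriers are membrane proteins that move amino acids, ions, metals, nucleotides, sugars and vitamins along or against their gradients. Those at the cell surface set what a cell takes up from its medium, and those of the Slc25 family mostly sit in the inner mitochondrial membrane and connect the matrix with the cytosol. Some work only with a partner protein: the amino acid exchangers of the Slc7 family that include Slc7a5, Slc7a7 and Slc7a11 reach the surface bound to Slc3a2. Others are regulated by their cargo. Slc30a1, which exports zinc, is a known target of the zinc-sensing factor MTF-1, and Slc38a2, which brings in glutamine and alanine, is known to increase when amino acids run short.

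The ES group was ES R1, a mouse embryonic stem cell line labelled as stem cell-derived spheres, on 3 plates. A plate each came from Neuro2A, which are mouse neuroblastoma cells, and from embryonic fibroblasts (MEF), and no treatment was named for any group. ES cells were cultured by an earlier published protocol, whereas both other types were grown in DMEM with serum, so medium and cell type cannot be told apart. Each well received 1 sorted cell and its own barcode, and the wells of a plate were pooled before PCR. The stated design counts 436 single cells, and 431 of 480 wells, those with 1000 gene reads or more, were used here: 93, 66 and 94 on the ES plates, 86 on the Neuro2A plate and 92 on the MEF plate. The labels do not say whether separate cultures filled the 3 ES plates, so the p-values below measure only the spread between these plates.

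Kept wells held 11432543, 262517 and 2134248 gene reads on the 3 ES plates, 3155092 on the Neuro2A plate and 2930884 on that of MEF. Levels are given as CPM, reads summed over the kept wells of a plate expressed per 1000000 gene reads and scaled with trimmed-mean (TMM) factors. In this unit a single read, 1 of the sum, was worth 0.080 CPM in ES replicate 1, 2.88 in ES replicate 2, 0.454 in ES replicate 3, 0.320 in Neuro2A and 0.502 in MEF. A plate with 0 reads of a gene is given the limit of 3 reads where a fold is needed, and limits and intervals cover counting error only. A plate sum cannot tell fewer cells with a transcript from less of it per cell, and levels are not divided by length, since reads mark the 5′ end. The 9 ES markers summed to between 5077 and 9667 CPM in the ES plates, with 8 of 9 at 0 in Neuro2A and 7 of 9 at 0 in MEF. The 8 fibroblast markers summed to 50011 CPM in MEF and the 8 neuroblastoma markers to 2057 CPM in Neuro2A.

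All 96 barcodes were used on every plate, and on 2 plates part of the reads fell on genes high in another plate. Over 199 genes high in MEF, ES replicate 3 held a median of 10.8% of the MEF reads, and over 134 genes high in Neuro2A, MEF held a median of 9.45% of the Neuro2A reads. Taking those shares out of every gene removed 14.5% of the ES replicate 3 member reads and 20.3% of the MEF member reads. The fibroblast markers were also highest among ES plates in replicate 3, at 5385 CPM. Results that rest on MEF or on ES replicate 3 are therefore given with and without these reads where it matters. The subtraction lowers genes of the source plate by construction. The genes behind each share were not required to be low in the plate that held it, and no share is given for other pairs of plates. Whether these reads were carried over or came from the plate's own cells was not tested. The term carried-over reads is used below only as a short name for them.

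The members whose start regions are shown here are both members of the pair of mitochondrial ADP/ATP carriers, which traded places between cell types, and the pair of zinc carriers that stood far above all other metal carriers in Neuro2A. Since the reads mark 5′ ends, the stretch around the start site is the part of each gene nearest to what was counted. Sequences are from RefSeq on GRCm38.p6, 250 bases before to 50 bases after the start, 5′ to 3′ on the strand of the gene. Capitals mark the core of the metal response element, the motif that MTF-1 binds, searched as TGCACNC or TGCGCNC on both strands, where cores may overlap. Slc30a1 lies at chr1:191906531-191906830 on the + strand, Slc30a5 at chr13:100833378-100833677 on the − strand, Slc25a4 at chr8:46211013-46211312 on the − strand and Slc25a5 at chrX:36795347-36795646 on the + strand.
Slc30a1: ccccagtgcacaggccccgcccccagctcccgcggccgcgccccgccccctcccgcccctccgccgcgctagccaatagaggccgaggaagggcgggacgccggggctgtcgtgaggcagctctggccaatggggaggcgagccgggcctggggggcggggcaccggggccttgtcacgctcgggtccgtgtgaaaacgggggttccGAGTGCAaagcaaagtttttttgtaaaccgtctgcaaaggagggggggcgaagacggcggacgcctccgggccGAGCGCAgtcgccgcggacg
Slc30a5: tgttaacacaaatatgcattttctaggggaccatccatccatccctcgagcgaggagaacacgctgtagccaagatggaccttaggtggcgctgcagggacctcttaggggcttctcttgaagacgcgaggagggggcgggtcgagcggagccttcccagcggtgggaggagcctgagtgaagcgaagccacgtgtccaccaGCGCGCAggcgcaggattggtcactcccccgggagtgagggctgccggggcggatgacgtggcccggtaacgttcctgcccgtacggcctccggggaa
Slc25a4: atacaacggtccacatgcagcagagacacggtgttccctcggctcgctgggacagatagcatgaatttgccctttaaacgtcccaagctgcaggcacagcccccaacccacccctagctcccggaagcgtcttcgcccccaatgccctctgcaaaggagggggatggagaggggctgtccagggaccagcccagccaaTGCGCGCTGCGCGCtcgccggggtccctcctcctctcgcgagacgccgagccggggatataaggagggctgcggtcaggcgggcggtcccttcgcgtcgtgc
Slc25a5: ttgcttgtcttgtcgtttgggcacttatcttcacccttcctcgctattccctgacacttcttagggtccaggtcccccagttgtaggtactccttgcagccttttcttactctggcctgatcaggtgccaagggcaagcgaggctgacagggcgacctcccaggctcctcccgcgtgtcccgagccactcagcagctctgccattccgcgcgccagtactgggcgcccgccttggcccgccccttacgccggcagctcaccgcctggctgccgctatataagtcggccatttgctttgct
The Slc30a1 window held 2 cores, beginning 43 bases before and 31 bases into the transcript. Slc30a5 held 1, and Slc25a4 held 2 that are next to each other. No core letters lie in the Slc25a5 window, which says nothing beyond these 300 bases. A core occurred in 64 of the 160 members with a window in the table (40%), in 10 of the 18 such metal carriers, and in 25.7% of all 32851 windows of this length. A gene can have several windows, and 28.2% of the 27025 genes with a window had a core in any of them. A match is a description of letters and not of a bound site.

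The members took 0.641%, 0.906% and 0.622% of the gene reads of ES replicates 1, 2 and 3, 1.303% of those of Neuro2A and 0.625% of those of MEF. In scaled CPM their summed level was 6258 ± 529 CPM in ES (SD, n = 3 plates), 13145 CPM in Neuro2A and 9188 CPM in MEF. Neuro2A stood above all 4 other plates on either scale. The order of ES and MEF depended on the scaling, since without the TMM factor the sums were 7230 CPM in ES and 6247 CPM in MEF. Slc25a4 and Slc38a2 together made up 35.7% of the Neuro2A sum, and without them Neuro2A still held 8452 CPM, against 5200 to 6222 CPM in the ES plates and 7554 CPM in MEF. Per kept well at full depth, members took a median of 0.534%, 0.695% and 0.588% of reads on the 3 ES plates, 1.14% on the Neuro2A plate and 0.588% on the MEF plate.

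Reads were spread over many members at low levels. Of the 212, 102, 162 and 148 had a read on the 3 ES plates, 107 on the Neuro2A plate and 136 on that of MEF, and 59 had reads in all 5 plates. Only 10 members reached 50 CPM in every plate, and 128 reached it in none. The 10 highest members took 58.1%, 39.7% and 43.99% of the member level on the 3 ES plates, 67.8% on the Neuro2A plate and 52.5% on that of MEF.

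**Figure D1:**
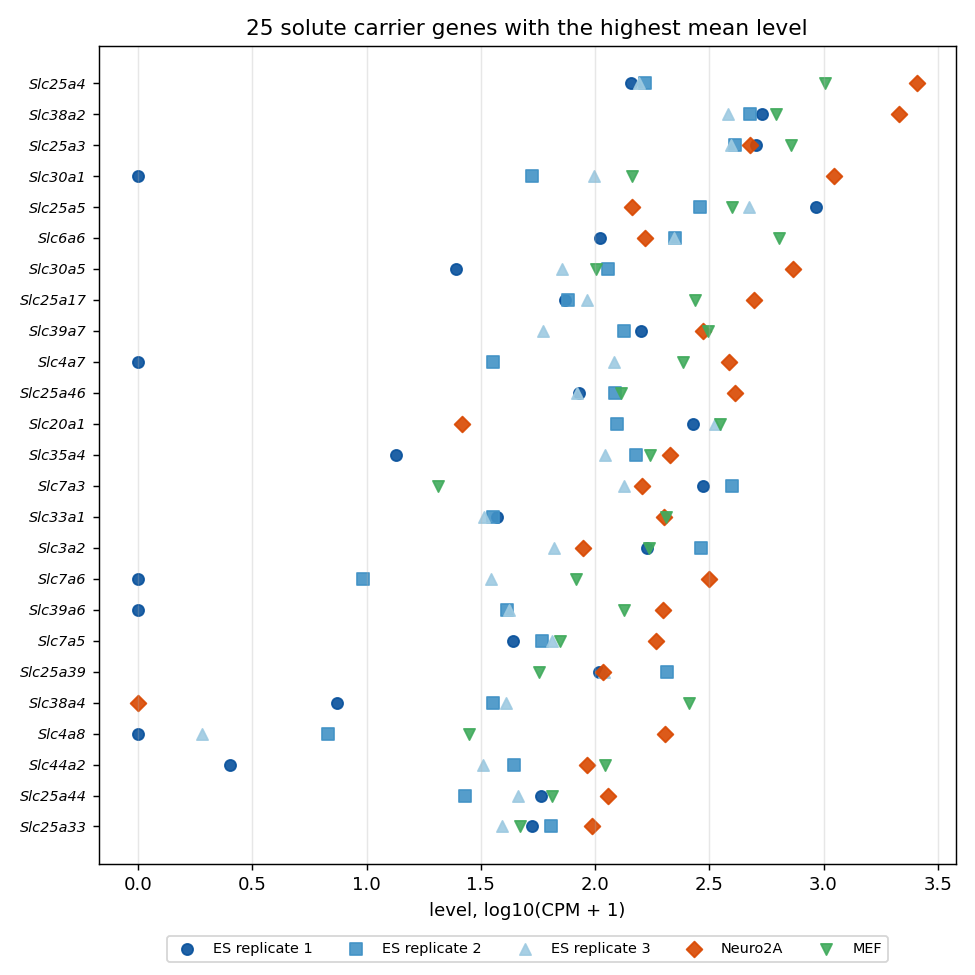
Level of the 25 members with the highest mean of the 3 cell types, as log10(CPM + 1), with 1 point for each plate. Slc25a4, Slc38a2, Slc30a1 and Slc30a5 are farthest right in Neuro2A, and Slc30a1, Slc4a7, Slc7a6, Slc39a6 and Slc4a8 have 0 reads in ES replicate 1.

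By class, mitochondrial carriers (35 members) took the most in every plate except ES replicate 2, with 2063 ± 151 CPM in ES (SD, n = 3), 4746 CPM in Neuro2A and 3287 CPM in MEF. In ES replicate 2 the amino acid carriers led, at 2103 CPM against 1944 CPM. Amino acid carriers (38 members) summed to 1757 ± 327 CPM in ES (SD, n = 3), 3426 CPM in Neuro2A and 2132 CPM in MEF. Metal and heme carriers (23 members) took 9.63% to 12.04% of the member level in the ES plates, 14.4% in MEF and 21.5% in Neuro2A. Their level was 682 ± 38.5 CPM in ES (SD, n = 3), 2823 CPM in Neuro2A and 1327 CPM in MEF. By library size alone it was 780 ± 81.5, 2797 and 902 CPM, with MEF much nearer to ES. Carriers of inorganic ions (34 members) stood at 1135 CPM in MEF, 936 CPM in Neuro2A and 657 ± 179 CPM in ES (SD, n = 3), but by library size alone at 771, 928 and 753 ± 219 CPM, with MEF below Neuro2A. Carriers of vitamins, lipids, choline and cofactors (17 members) stood at 336 ± 76.2 CPM in ES (SD, n = 3), 519 CPM in Neuro2A and 507 CPM in MEF, and those of nucleosides and nucleotide sugars (10 members) at 233 ± 63.7, 406 and 282 CPM. Classes were set by family number, so a class can hold members with another cargo. The 19 members of the sugar class, without Slc2a1 and Slc2a3, came to 129 ± 48.6 CPM in ES (SD, n = 3), 52.5 CPM in Neuro2A and 162 CPM in MEF. By library size alone, Slc5a6, placed there only by its family number, gave 28.5 of the 51.98 CPM of this class in Neuro2A. By library size alone MEF lay below the ES mean for the mitochondrial, amino acid, vitamin, nucleoside and sugar carriers, whereas the order of ES and Neuro2A was the same on both scales for each class named here. Changing from TMM to library size moved the median fitted log2 difference of all genes, ES minus MEF, from −0.08 to 0.65. Of the members described below, Slc12a2, Slc20a1, Slc24a2, Slc25a3, Slc25a46, Slc30a1, Slc30a6, Slc35a4, Slc38a1, Slc38a2, Slc39a14, Slc40a1 and Slc7a5 were higher in MEF than in every ES plate in scaled CPM but not by library size.

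**Figure D2:**
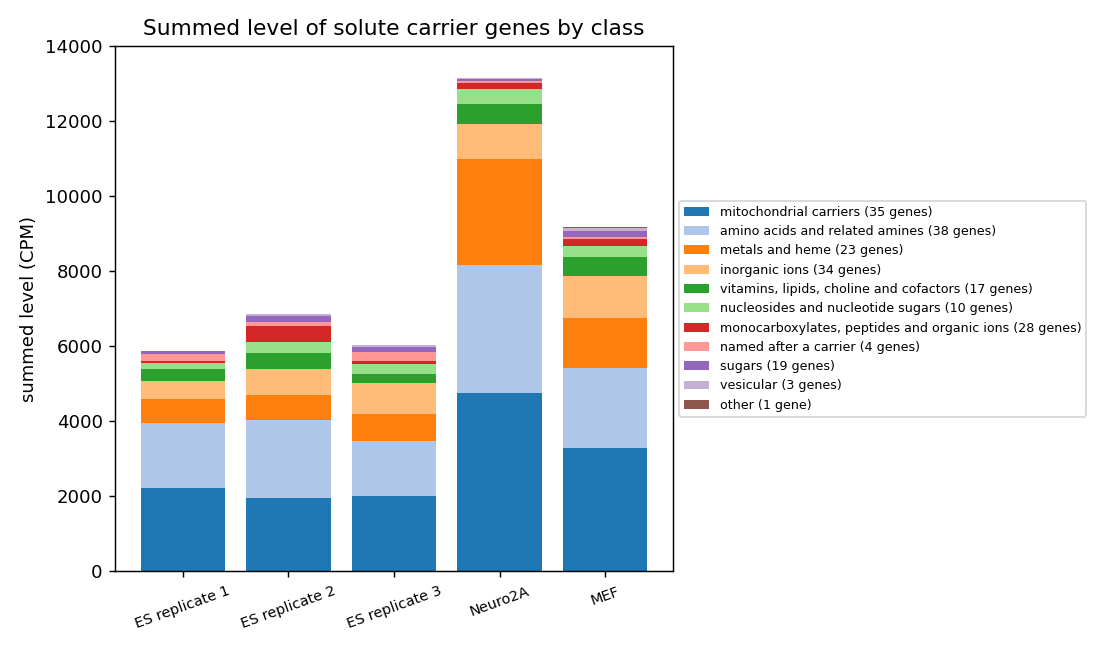
Summed level of the members in CPM, stacked by class, for each of the 5 plates. Neuro2A reaches 13145 CPM with 2823 CPM of metal and heme carriers, and the ES plates lie between 5878 and 6862 CPM.

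Slc25a4 and Slc25a5 encode ADP/ATP carriers, which exchange matrix ATP for cytosolic ADP. Slc25a4 stood at 142, 164 and 155 CPM in ES replicates 1, 2 and 3, at 2552 CPM in Neuro2A and at 1014 CPM in MEF. The 3 ES plates lay close together and far below both other plates. Neuro2A was 16.6-fold and MEF 6.59-fold above the ES mean, and edgeR's quasi-likelihood test gave a log2 difference, ES minus other, of −4.05 ± 0.58 (SE; adjusted p = 0.177) for Neuro2A and −2.72 ± 0.58 (SE; adjusted p = 0.472) for MEF. Slc25a4 did not pass that test in either comparison, while DESeq2 gave adjusted p-values of 5.0e-07 and 0.00531. With carried-over reads taken out, the MEF level was 581 CPM and that of ES replicate 3 was 66.2 CPM.

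Slc25a5 ran the other way, at 924, 286 and 472 CPM in ES replicates 1, 2 and 3, 144 CPM in Neuro2A and 397 CPM in MEF. Every ES plate was above Neuro2A, and MEF lay within the ES range. The ES mean was 3.90-fold above Neuro2A (log2 difference 1.97 ± 0.97 (SE), edgeR adjusted p = 0.466). Of the summed level of both carriers, Slc25a4 made up 13.3%, 36.5% and 24.7% in ES replicates 1, 2 and 3, 71.8% in MEF and 94.7% in Neuro2A. The groups did not overlap. Slc25a4 and Slc25a5 are closely related in sequence and Slc25a5 has a listed pseudogene, so the authors' counting could have split reads between near-identical copies.

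The same ordering appeared in the share of wells with a read. In wells thinned to 1000 reads, Slc25a4 was read in 5.38%, 21.2% and 9.57% of ES wells, 68.6% of Neuro2A wells (exact 95% interval 57.7% to 78.2%) and 44.6% of MEF wells (34.2% to 55.3%). Without thinning these shares were 31.2%, 34.8% and 54.3% in ES, 87.2% in Neuro2A and 75.0% in MEF. Slc25a5 was read in 35.5%, 31.8% and 22.3% of thinned ES wells, 9.30% of Neuro2A wells and 11.96% of MEF wells. Wells of a plate are not replicates, and no test was made on these shares.

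Slc25a3, which carries the phosphate used for ATP synthesis, was the steadiest of the abundant members. It stood at 506, 407 and 393 CPM in ES replicates 1, 2 and 3, 477 CPM in Neuro2A and 721 CPM in MEF. Neuro2A lay within the ES range, and MEF was 1.66-fold above the ES mean. Its thinned share of wells ran from 19.4% to 25.5% in the ES plates, with 25.6% in Neuro2A and 25.0% in MEF.

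Slc25a13 encodes citrin, an aspartate/glutamate carrier of the malate-aspartate shuttle. It stood at 109, 77.9 and 112 CPM in ES replicates 1, 2 and 3, with 0 reads in Neuro2A and 1 read in MEF. It was at least 104-fold higher in ES than in Neuro2A, and 199-fold higher than in MEF (counting interval 35.6 to 7842). The edgeR adjusted p-values were 0.202 and 0.472, and those of DESeq2 were 0.000417 and 0.00277. Its relative Slc25a12 was detected in every plate, at 9.47, 28.8 and 101 CPM in ES replicates 1, 2 and 3, 18.2 CPM in Neuro2A and 11.04 CPM in MEF, with neither other plate outside the ES range.

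Slc25a17, the family's peroxisomal carrier of cofactors, stood at 72.6, 75.0 and 90.9 CPM in the ES plates, 493 CPM in Neuro2A and 274 CPM in MEF. In ES replicate 1, 97.8% of its reads came from 1 well. Slc25a46, an outer membrane protein involved in mitochondrial dynamics, stood at 84.3, 121 and 82.7 CPM in ES, 409 CPM in Neuro2A and 129 CPM in MEF, and 1 well gave 59.6% of its Neuro2A reads. With the Neuro2A share taken out, its MEF level was 62.9 CPM. Slc25a14, a carrier of the uncoupling protein group, had 4, 0 and 4 reads in the ES plates against 78.0 CPM in Neuro2A and 11.5 CPM in MEF. Slc25a24, the calcium-regulated ATP-magnesium/phosphate carrier, was at 172 CPM in MEF, with 0 reads in ES replicates 1 and 2 and in Neuro2A and 17.3 CPM in ES replicate 3. That last value was 0.54 CPM once the MEF share was taken out.

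Slc25a11, the oxoglutarate/malate carrier of the same shuttle as citrin, stood at 44.3, 83.6 and 46.8 CPM in ES, 7.04 CPM in Neuro2A and 20.1 CPM in MEF, so that each ES plate was above both others. A single well, 1 on each plate, gave 77.3% of its Neuro2A reads and 92.5% of its MEF reads. Slc25a39, linked to mitochondrial glutathione uptake, stood at 104, 205 and 109 CPM in ES, 108 CPM in Neuro2A and 55.7 CPM in MEF, so that the Neuro2A plate overlapped the ES plates. Slc25a38, needed for heme synthesis as a glycine carrier, stood at 15.7, 11.5 and 24.1 CPM in ES, 0 reads in Neuro2A and 73.3 CPM in MEF. Slc25a32, a folate and flavin carrier, was at 0, 23.1 and 14.5 CPM in ES, 34.9 CPM in Neuro2A and 109 CPM in MEF.

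**Figure D3:**
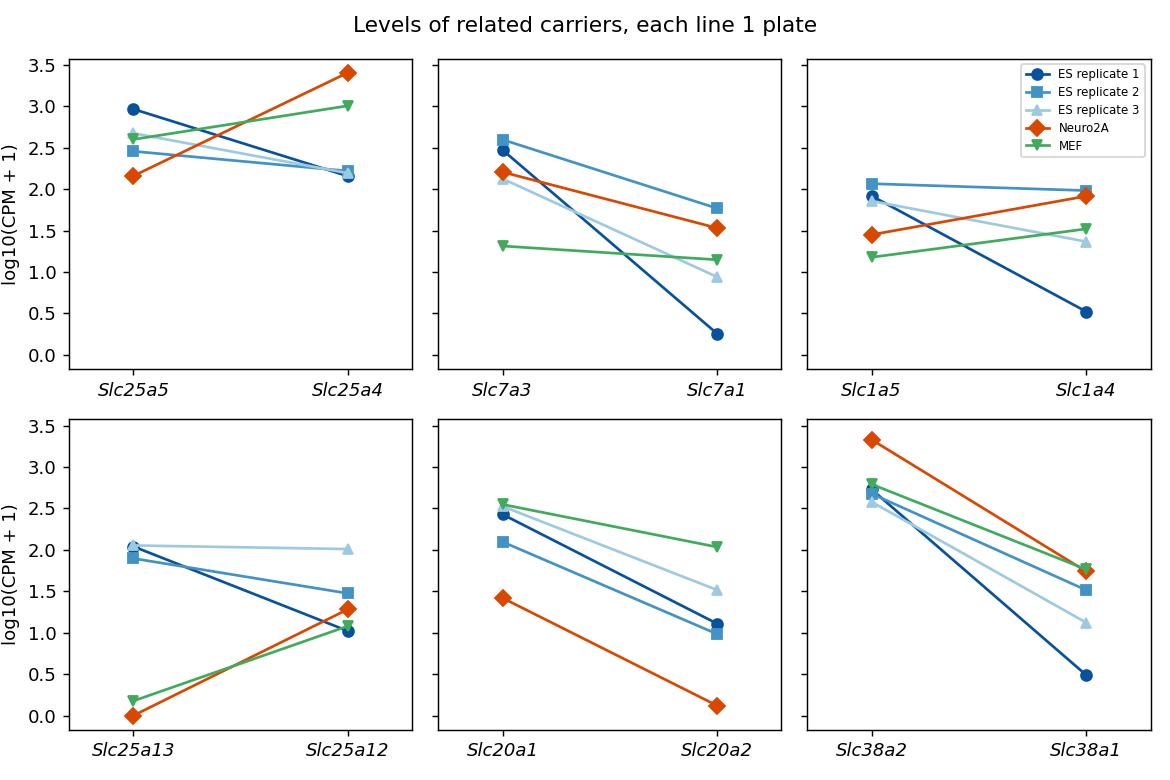
Levels of related carriers as log10(CPM + 1), with 1 line joining both members of a pair in each plate. For Slc25a5 and Slc25a4 the lines of the 3 ES plates slope down and those of Neuro2A and MEF slope up.

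Slc38a2, a sodium-coupled carrier of small neutral amino acids, was the most abundant amino acid carrier in each of the 5 plates except MEF. It stood at 536, 476 and 379 CPM in ES replicates 1, 2 and 3, 2140 CPM in Neuro2A and 620 CPM in MEF. Neuro2A lay 4.61-fold above the ES mean, with a log2 difference, ES minus Neuro2A, of −2.21 ± 0.60 (SE; edgeR adjusted p = 0.312, DESeq2 adjusted p = 0.0165). MEF lay above each ES plate with the carried-over reads and below each of them without, at 277 CPM. It was read in 55.8% of thinned Neuro2A wells (exact 95% interval 44.7% to 66.5%), in 18.3%, 33.3% and 24.5% of those of ES replicates 1, 2 and 3 and in 31.5% of those of MEF. The related Slc38a1 was far lower in every plate, from 2.09 CPM in ES replicate 1 to 57.2 CPM in MEF.

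Slc7a3 and Slc7a1 import arginine and lysine. Slc7a3 stood at 296, 395 and 133 CPM in ES replicates 1, 2 and 3, 160 CPM in Neuro2A and 19.6 CPM in MEF. Every ES plate was above MEF, by 14.04-fold at the mean (log2 difference 3.81 ± 1.10 (SE), edgeR adjusted p = 0.500, DESeq2 adjusted p = 0.00885), while Neuro2A lay within the ES range. The 39 MEF reads came to 0 after the Neuro2A share was taken out. In ES replicate 2, 1 well gave 50.4% of the Slc7a3 reads. Slc7a1 was lower than Slc7a3 in every plate before subtraction, at 0.80, 57.7 and 7.72 CPM in ES, 32.9 CPM in Neuro2A and 13.1 CPM in MEF. After subtraction the order in MEF turned, with Slc7a1 at 7.34 CPM and Slc7a3 at 0.

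The glutamine carrier Slc1a5 stood at 81.9, 115 and 70.9 CPM in ES replicates 1, 2 and 3, 27.2 CPM in Neuro2A and 14.1 CPM in MEF, the last 9.18 CPM after subtraction. All ES plates were above both others, with edgeR adjusted p-values of 0.533 for Neuro2A and 0.589 for MEF. Slc1a4, a neutral amino acid carrier of the same family, stood at 2.33, 95.2 and 22.3 CPM in ES, 81.2 CPM in Neuro2A and 32.1 CPM in MEF, the last 18.4 CPM after subtraction. Slc1a5 exceeded Slc1a4 in each ES plate and was below it in both other plates. Slc1a3, a glutamate carrier, had reads in ES alone among these plates, at 6.66, 17.3 and 7.27 CPM, with 93.8% of the reads in ES replicate 3 from 1 well.

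Slc6a15, a carrier of branched-chain amino acids, stood at 125, 23.1 and 13.2 CPM in ES, 111 CPM in Neuro2A and 3.01 CPM in MEF. The creatine carrier Slc6a8 stood at 242, 20.2 and 164 CPM in ES, 5.76 CPM in Neuro2A and 37.1 CPM in MEF, with ES replicate 2 below MEF. The taurine carrier Slc6a6 was highest in MEF, at 637 CPM, against 104, 222 and 221 CPM in ES and 164 CPM in Neuro2A. Neuro2A lay within the ES range for Slc6a6, and the log2 difference, ES minus MEF, was −1.81 ± 0.71 (SE; edgeR adjusted p = 0.583).

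Slc38a4, a further carrier of neutral and cationic amino acids, had 0 reads in Neuro2A, 6.42, 34.6 and 39.98 CPM in ES replicates 1, 2 and 3 and 257 CPM in MEF. The groups did not overlap. MEF was 9.53-fold above the ES mean and at least 268-fold above Neuro2A, and ES was at least 28.1-fold above Neuro2A. The edgeR adjusted p-values were 0.556 for MEF and 0.310 for Neuro2A. With carried-over reads taken out, ES replicate 3 stood at 17.4 CPM.

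Of the exchangers that pair with Slc3a2, Slc7a5, the large neutral amino acid exchanger, stood at 42.6, 57.7 and 64.1 CPM in ES, 183 CPM in Neuro2A and 69.3 CPM in MEF, the last 38.6 CPM after subtraction. Slc7a6, which exchanges cationic for neutral amino acids, stood at 0, 8.65 and 34.1 CPM in ES, 314 CPM in Neuro2A and 81.8 CPM in MEF, the last 32.1 CPM after subtraction. Its close relative Slc7a7 stood at 101, 11.5 and 167 CPM in ES, with 4 reads in Neuro2A and 1 read in MEF. Slc7a6 was above every ES plate in both other types, and Slc7a7 below every ES plate. After subtraction, however, Slc7a6 in MEF was nearly level with ES replicate 3, at 32.1 against 30.9 CPM. The 4 reads of Slc7a7 in ES replicate 2 came from 1 well. Slc7a11, the cystine/glutamate exchanger, stood at 0, 28.8 and 2.27 CPM in ES, 62.0 CPM in Neuro2A and 3.01 CPM in MEF. Slc3a2 itself, the shared partner, stood at 167, 288 and 65.0 CPM in ES, 87.3 CPM in Neuro2A and 171 CPM in MEF, with both within the ES range.

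Carriers of transmitters were near the limit of detection. The vesicular monoamine carrier Slc18a2 had 10 reads in Neuro2A, 4 in MEF and 0 in ES. The noradrenaline carrier Slc6a2 had 11 reads in ES replicate 2, all from 1 well, and 0 elsewhere, and the glycine carrier Slc6a9 had 2 reads in Neuro2A. Slc12a5, the chloride extruder of mature neurons, had 24 reads in Neuro2A (7.68 CPM), 95.8% of them from 1 well, 2 in MEF and 1 in ES.

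Among metal carriers, Slc30a1, the zinc exporter of the plasma membrane, stood at 0, 51.9 and 97.7 CPM in ES replicates 1, 2 and 3, 1114 CPM in Neuro2A and 144 CPM in MEF. Neuro2A was 22.3-fold above the ES mean and 7.76-fold above MEF, but the ES plates themselves ran from 0 reads among 11432543 to 215 reads among 2134248. The log2 difference, ES minus Neuro2A, was −4.49 ± 2.29 (SE; edgeR adjusted p = 0.480, DESeq2 adjusted p = 0.188). The 286 MEF reads were 8.21% of those in Neuro2A, under the median of 9.45% over the 134 genes high in Neuro2A, and none remained after subtraction. Slc30a1 is itself among those 134 genes, as are Slc40a1 and Slc4a8. A gene of that set at or under its median comes to 0 by construction. Slc30a1 was read in 23.3% of thinned Neuro2A wells (exact 95% interval 14.8% to 33.6%) and in 0%, 3.03% and 7.45% of those of ES replicates 1, 2 and 3.

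Slc30a5, which moves zinc into the early secretory pathway, stood at 23.6, 112 and 70.4 CPM in ES, 735 CPM in Neuro2A and 99.9 CPM in MEF. Neuro2A was 10.7-fold above the ES mean, with a log2 difference, ES minus Neuro2A, of −3.44 ± 0.90 (SE; edgeR adjusted p = 0.307, DESeq2 adjusted p = 0.0313). Its MEF reads came to 8.66% of those in Neuro2A and to none after subtraction. Slc40a1, the iron exporter ferroportin, showed the same order, at 12.8, 5.77 and 4.09 CPM in ES, 159 CPM in Neuro2A and 16.1 CPM in MEF, the last again 0 after subtraction. Some further members of the Slc30 family, named after their values were seen, were higher in MEF than in Neuro2A. Slc30a4 stood at 79.8 CPM there against 51.5 CPM in Neuro2A, Slc30a6 at 38.1 CPM against 0 reads, Slc30a7 at 25.1 CPM against 1 read, Slc30a9 at 118 against 43.5 CPM and Slc30a10 at 28.1 against 2.56 CPM.

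Among the zinc importers, Slc39a10 stood at 34.996, 0 and 9.99 CPM in ES, 118 CPM in Neuro2A and 18.6 CPM in MEF, the last 0.92 CPM after subtraction, and Slc39a6, its relative, at 0, 40.4 and 40.9 CPM in ES, 197 CPM in Neuro2A and 133 CPM in MEF. Slc39a7, which releases zinc from the endoplasmic reticulum, was at 159, 133 and 58.1 CPM in ES, 296 CPM in Neuro2A and 312 CPM in MEF. Slc39a14, a carrier of zinc, iron and manganese, was by contrast lowest in Neuro2A, at 4.48 CPM, against 77.4, 31.7 and 44.5 CPM in ES and 91.8 CPM in MEF. Slc39a3 had 7, 0 and 1 reads in the ES plates, 21.4 CPM in Neuro2A and 54.2 CPM in MEF, where 1 well gave 83.3% of them.

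Slc11a1 is best known as a divalent metal carrier of macrophage phagosomes. It stood at 137, 54.8 and 211 CPM in ES replicates 1, 2 and 3, with 1 read in Neuro2A and 0 reads in MEF. The ES mean was at least 89.1-fold above MEF and 420-fold above Neuro2A (counting interval 75.3 to 16576), with edgeR adjusted p-values of 0.472 and 0.253 and DESeq2 adjusted p-values of 0.00121 and 0.000457. The reads were not those of a single cell, with 17, 10 and 49 wells of ES replicates 1, 2 and 3 holding at least 1, although 1 well gave 59.6% of the reads in ES replicate 1. Of the 5 macrophage markers only 1, Cd68, had a row on any plate, with 16.4 CPM in ES replicate 3 and 0 in ES replicates 1 and 2. The other 4 count as 0 because their rows are absent, so it is not known whether they could have been counted. The widely expressed relative Slc11a2 stood at 47.2, 5.77 and 11.4 CPM in ES, 24.3 CPM in Neuro2A and 12.5 CPM in MEF.

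**Figure D4:**
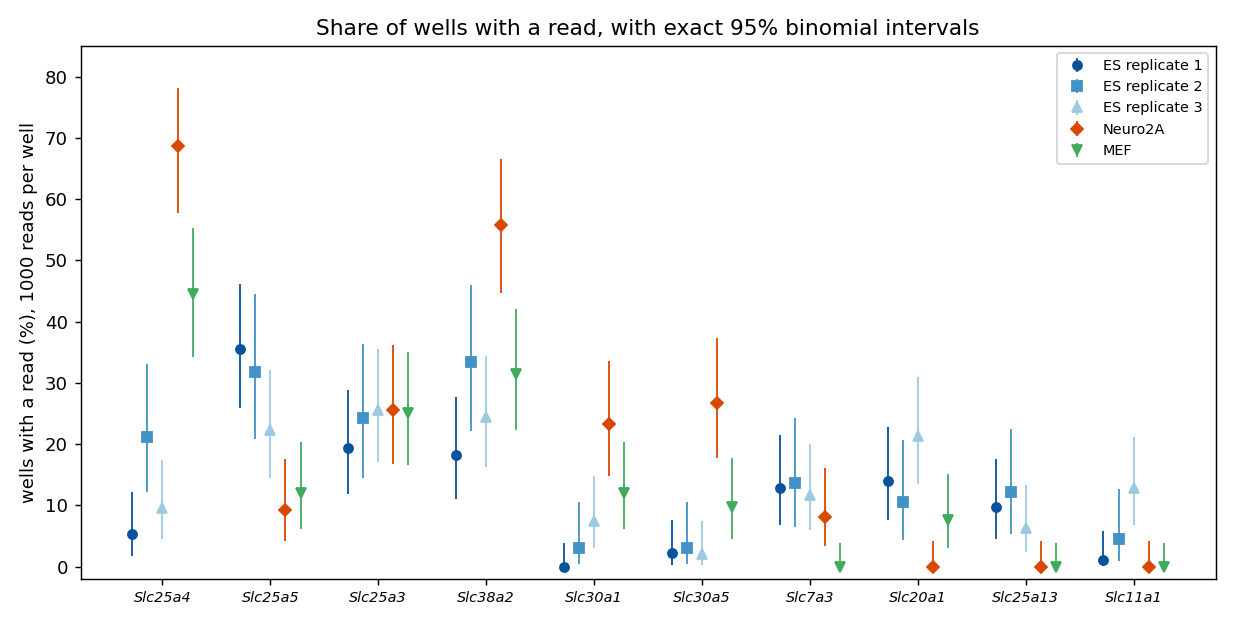
Share of wells with a read for 10 members, with every well thinned to 1000 gene reads, by plate; bars are exact 95% binomial intervals for counting error only. Slc25a4 reaches 68.6% of wells in Neuro2A, and Slc25a13 and Slc11a1 have no thinned well with a read in Neuro2A or MEF.

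Slc20a1 and Slc20a2 are sodium-phosphate carriers. Slc20a1 stood at 268, 124 and 335 CPM in ES replicates 1, 2 and 3, 25.3 CPM in Neuro2A and 353 CPM in MEF. Neuro2A was below every other plate and 9.58-fold below the ES mean (log2 difference 3.26 ± 1.02 (SE), edgeR adjusted p = 0.344, DESeq2 adjusted p = 0.0105). Slc20a2 was lower than Slc20a1 in every plate, at 11.9, 8.65 and 31.8 CPM in ES, 1 read in Neuro2A and 107 CPM in MEF.

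The sodium-bicarbonate carrier Slc4a7 stood at 0, 34.6 and 120 CPM in ES, 384 CPM in Neuro2A and 241 CPM in MEF, and its relative Slc4a8 at 0, 5.77 and 0.91 CPM in ES, 201 CPM in Neuro2A and 27.1 CPM in MEF. The MEF reads of Slc4a8 came to 0 after subtraction. Slc24a2, a sodium-calcium-potassium exchanger, had 1 read in all ES plates together against 59.8 CPM in Neuro2A and 5.02 CPM in MEF.

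The potassium-chloride carrier Slc12a4 stood at 0, 5.77 and 12.3 CPM in ES, 3.84 CPM in Neuro2A and 90.8 CPM in MEF, with MEF above every other plate. Slc12a2, which brings chloride in with sodium and potassium, was at 17.6, 37.5 and 42.3 CPM in ES, 71.6 CPM in Neuro2A and 47.2 CPM in MEF.

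In the remaining classes, Slc33a1, which carries acetyl-CoA into the endoplasmic reticulum, stood at 36.4, 34.6 and 31.8 CPM in ES, 200.2 CPM in Neuro2A and 204 CPM in MEF. The ES plates lay close together and below both others, with ES replicate 3 at 14.1 CPM after subtraction. However, 1 well each gave 72.0% of the Slc33a1 reads in ES replicate 1 and 66.7% of those in ES replicate 2. The thiamine carrier Slc19a2 was at 173, 49.04 and 84.95 CPM in ES, 78.7 CPM in Neuro2A, where 1 well gave 96.7% of the reads, and 10.0 CPM in MEF. Slc44a2, a choline carrier, was at 1.53, 43.3 and 31.3 CPM in ES, 90.8 CPM in Neuro2A and 110 CPM in MEF, with 77.8% of its Neuro2A reads and all of those in ES replicate 2 from 1 well each. The CMP-sialic acid carrier Slc35a1 stood at 0, 34.6 and 29.5 CPM in ES, 81.2 CPM in Neuro2A and 72.8 CPM in MEF, and 1 well gave 92.9% of the Neuro2A reads. Slc35a4 stood at 12.5, 150 and 110 CPM in ES, 212 CPM in Neuro2A and 173 CPM in MEF.

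MEF alone reached 50 CPM for Slc37a2, a sugar-phosphate exchanger (73.8 CPM, with 4.54 CPM or less in the other plates), for Slc2a10, a member of the glucose carrier family (65.2 CPM, of which 1 well gave 90.8%, with 10.5 CPM or less elsewhere), and for Slc22a17, a receptor for lipocalin (61.2 CPM, with 11.5 CPM or less elsewhere). Slc22a4, the ergothioneine carrier, was at 77.4 CPM in Neuro2A, where 1 well gave 95.5% of the reads, and had 0 reads in ES. Of the proteins named after a carrier, the scaffold Slc9a3r1 stood at 65.5, 57.7 and 157 CPM in ES, 0 reads in Neuro2A and 28.6 CPM in MEF (86.0% of it from 1 well), at least 97.2-fold higher in ES than in Neuro2A (edgeR adjusted p = 0.241, DESeq2 adjusted p = 0.000718).

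Across all members, every ES plate was above MEF for 29 of 212 (13.7%, against 18.4% of all genes) and below MEF for 73 (34.4%, against 34.1%). Every ES plate was above Neuro2A for 35 members (16.5%, against 22.9% of all genes) and below it for 52 (24.5%, against 24.1%). The members' shares were thus near or under those of all genes. The median log2 ratio, on CPM plus 5, was 0.25 for ES over MEF (0.13 over all genes) and 0.47 for ES over Neuro2A (0.41 over all genes).

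**Figure D5:**
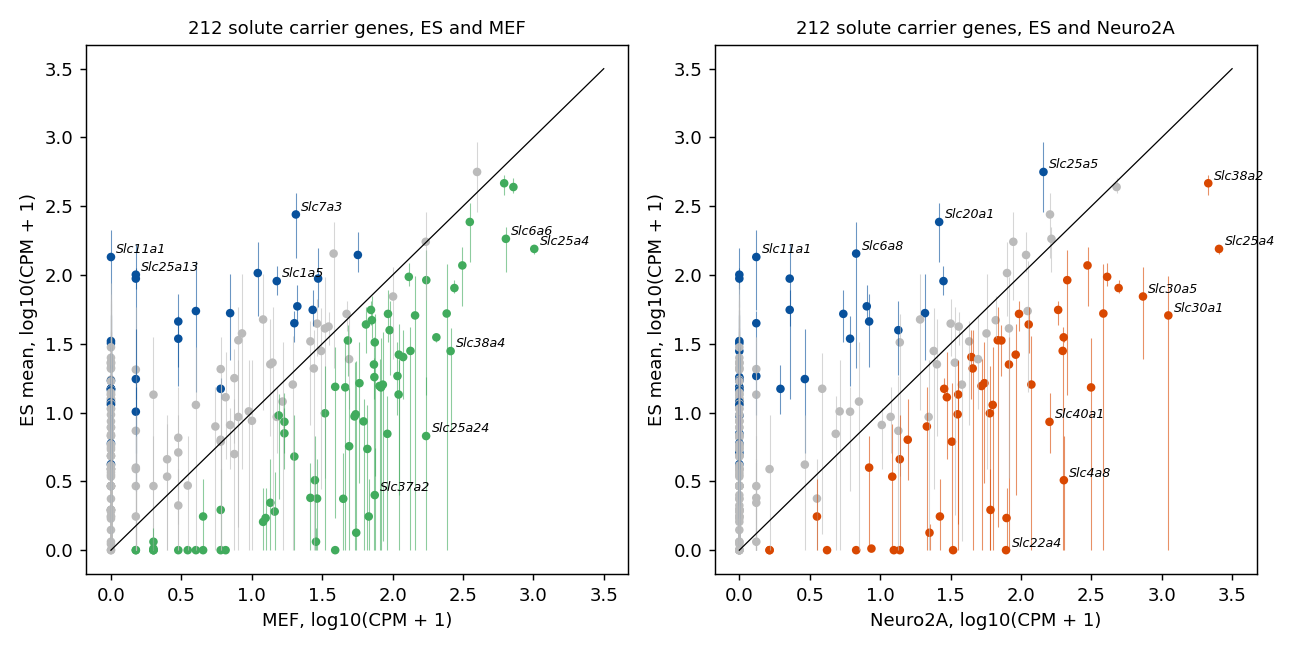
ES mean against MEF (left) and against Neuro2A (right) for the 212 members, both axes log10(CPM + 1); vertical lines span the 3 ES plates and the diagonal marks equal levels. Coloured points have every ES plate on 1 side: 29 above and 73 below MEF, and 35 above and 52 below Neuro2A.

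The test had little reach with 1 plate of Neuro2A and MEF, whose spread was taken from the ES plates (common dispersion 1.50 on 2 residual degrees of freedom). Of the 212 members, 149 passed the filter on low counts. None passed edgeR's adjusted p of 0.05 in either comparison or direction, and neither did any other gene (0% of 12271). At an unadjusted edgeR p under 0.05, 7 members were higher in ES than in MEF (4.21% of all genes tested were) and 7 lower (4.17%), while 13 were higher in ES than in Neuro2A (8.38%) and 11 lower (4.05%).

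DESeq2 called Slc11a1, Slc25a13, Slc7a3 and Slc7a7 higher in ES than in MEF (4 members, against 3.22% of all genes) and Slc25a4 lower (1 member, against 0.701%). Against Neuro2A it called 12 members higher in ES (8.75% of all genes were) and 8 lower (1.33%), the latter being Slc22a4, Slc25a14, Slc25a17, Slc25a4, Slc30a5, Slc38a2, Slc40a1 and Slc4a8. Limma-voom called 0 members higher in ES than in MEF (0.00815% of all genes were) and 6 lower (4%), including Slc25a4, and none against Neuro2A (0% of all genes each way).

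Without ES replicate 1, edgeR called 0 members against MEF (0.213% of all genes were higher in ES and 0% lower), but 4 members were called higher in ES than in Neuro2A (2.63% of all genes were), namely Slc11a1, Slc25a13, Slc38a4 and Slc9a3r1, and 3 lower (0.995%), namely Slc25a4, Slc30a1 and Slc4a8. ES replicate 1, the deepest plate, had 0 reads for 7 of the 51 members that reached 20 CPM in both other ES plates (13.7%), against 3.60% of 4949 such genes. These were Slc30a1, Slc30a4, Slc35a1, Slc37a1, Slc37a3, Slc39a6 and Slc4a7. The ES plates otherwise spread about as much for members as for other genes, with a median coefficient of variation of 44.8% over the 29 members and 45.7% over the 3725 genes with an ES mean of at least 50 CPM.

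Neuro2A and MEF, with 1 plate each, were compared by ratio without a test. Neuro2A was at least 4 times MEF, with at least 20 CPM, for 20 members (9.43%, against 9.04% of all genes), among them Slc6a15 (36.7-fold), Slc7a11 (20.6-fold), Slc22a4 (14.02-fold) and Slc40a1 (9.88-fold). The MEF reads of these 4 members came to 0 after subtraction, as did those of Slc19a2, Slc24a2, Slc25a14, Slc25a16, Slc30a1, Slc30a5, Slc35a5, Slc4a8 and Slc7a3. MEF was at least 4 times Neuro2A for 25 members (11.8%, against 17.1% of all genes), among them Slc38a4 (at least 268-fold), Slc25a24 (at least 179-fold) and, on 1 Neuro2A read, Slc20a2 (336-fold, counting interval 60.3 to 13264).

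Transport proteins outside the Slc families and partners of the carriers were also summed. The 34 ABC transporters summed to 1109 ± 129 CPM in ES (SD, n = 3), 1152 CPM in Neuro2A and 1269 CPM in MEF, and the 5 Slco genes, a sister group of organic anion carriers, to 50.4 ± 63.1, 107 and 109 CPM. The 30 subunits of sodium, calcium and proton pumps came to 2010 ± 494 CPM in ES (SD, n = 3), 2742 CPM in Neuro2A and 3881 CPM in MEF. The carriers' partner proteins Nptn, Bsg, Emb and Slc3a2, the last also a member, came to 896 ± 200 CPM in ES (SD, n = 3), 2207 CPM in Neuro2A and 3090 CPM in MEF. Of these, Bsg was the highest in ES, at 457 ± 104 CPM (SD, n = 3), against 571 CPM in Neuro2A and 1380 CPM in MEF, and Nptn the highest in both other types, at 1027 and 1458 CPM against 225 ± 42.2 CPM in ES (SD, n = 3). The 12 genes of the amino acid shortage response came to 1191 ± 212 CPM in ES (SD, n = 3), 1912 CPM in Neuro2A and 1380 CPM in MEF. Of that list Atf4, the factor known to drive Slc38a2 and Slc7a11, stood at 386 ± 25.6 CPM in ES (SD, n = 3), 762 CPM in Neuro2A and 491 CPM in MEF. Psat1 and Mthfd2 were also higher in both other types. In the same order, Psat1 stood at 181 ± 81.8, 336 and 320 CPM and Mthfd2 at 63.6 ± 40.3, 341 and 146 CPM. Asns, a target of Atf4, was instead lower in both other types, at 336 ± 109, 150 and 154 CPM. None of these genes passed edgeR's adjusted p of 0.05 (0% of all genes did). DESeq2 called 2 ABC transporters higher in ES in each comparison (3.22% of all genes were against MEF and 8.75% against Neuro2A), and 1 pump subunit and 1 partner protein lower in each (0.701% and 1.33%).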

How the data were processed

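Single-cell tagged reverse transcription libraries of 5 plates were analysed from the deposited tables of raw hit counts, 1 column per barcode, as the readme deposited by the authors describes. Per the submitters' processing notes, Bowtie was used, while the version, build, annotation and strand setting were not given in the sources used here, and no molecular identifiers are named. Among 71 named members, exons of 15 overlap another gene in GENCODE, and those counts may hold reads of both.

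Repeat and mitochondrial rows were left out, an absent row was 0 reads, and wells with at least 1000 gene reads were summed per plate. The sums of all 5 plates were fitted with edgeR 4.0.16 (filterByExpr, TMM, quasi-likelihood test, Benjamini-Hochberg over 12271 genes at 0.05). DESeq2 1.42.0 and limma 3.58.1 (voom) were alternatives. Named were the 12 highest members, 3 per class, up to 12 each way per comparison by the ratio of CPM + 5 with at least 50 CPM and every ES plate on 1 side, members on which a call turned, and a list of amino acid, transmitter, nucleotide and ion carriers, of which 24 of 28 had a row. Slc25a12, Slc11a2 and the list of zeros in ES replicate 1 were added after their values were seen. A few members that this rule names are left out of the text. Members and lists were chosen with earlier results of these data known. Promoters matched 210 members by symbol and 2 by an older symbol, and 160 had a window. The fit was tested on simulated data. Other software comprised R 4.3.3, Python 3.11.15, matplotlib 3.10.9, scipy 1.17.1, pandas 2.3.3 and numpy 2.4.6.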

Additional observations from a re-analysis of the deposited data

Results flagged for a closer look

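Wells under 1000 gene reads, which entered no comparison, still held member reads. There were 102 in ES replicate 2, 5 in ES replicate 3, 55 in Neuro2A and 8 in MEF, each above the 3 reads that a count of 0 allows. With these wells included, each count of members stayed within 1.5 times the count without them.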

How the results depend on the processing

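For the 48 comparisons of named members, 548 recomputed values kept their direction and side of edgeR's threshold, 28 newly passed it and 0 reversed. Calls were 0 by edgeR, and by DESeq2 4 and 1 (higher and lower in ES than MEF) and 12 and 8 (Neuro2A). Limma-voom called 6 lower than MEF, and edgeR without the low-count filter 1 lower than Neuro2A. With 1 ES replicate left out, calls against Neuro2A ran from 0 to 4 higher and 0 to 3 lower, both maxima without replicate 1. Under the same omissions every remaining ES plate was above MEF for 39 to 59 members and above Neuro2A for 41 to 65. Fewer plates make this easier to meet for any gene. A minimum of 100 CPM left 7 and 4 members past 4-fold between Neuro2A and MEF. No share of all genes is given beside these recomputed counts, so they describe the processing and not a trait of the members.

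The summed level in ES was 7230 CPM by library size alone, 2897 with repeats and mitochondrial rows in the total, and 6196 to 7080 with 1 replicate left out. In Neuro2A it was 13543 with DESeq2 size factors, 13370 in wells of at least 5000 reads, 13004 without the deepest wells, 13916 with carried-over reads subtracted and 8152 over all rows. In MEF it was 8473 with DESeq2 size factors, 6247 by library size, 6702 with subtraction and 4129 over all rows.

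Shares of wells moved with depth. Without thinning, Slc25a4 was read in 40.1% (ES mean), 87.2% (Neuro2A) and 75.0% (MEF), Slc25a5 in 67.7%, 40.7% and 41.3%, and Slc38a2 in 59.4%, 81.4% and 67.4%. Thinned to 500 reads, Slc25a4 was at 54.7% in Neuro2A and 20.7% in MEF, Slc25a5 at 22.7% in ES, and Slc38a2 at 37.2% in Neuro2A and 18.5% in MEF. In wells of at least 5000 reads, Slc25a5 was at 37.6% in ES and Slc38a2 at 18.8% in MEF. Apart from the subtraction and the thinning, the cause of these shifts was not tested. No paired analysis was possible because MEF and Neuro2A had 1 plate each. Depth limits ES replicate 2, where 3 reads are 8.65 CPM and 1 well gave 25.9% of the gene reads.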

Other observations

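Of the 212 members, 50 had reads in 1 plate only. The shallowest plate, ES replicate 2, held 32 of them, none with more than 30 reads, and ES replicate 3 held 8, ES replicate 1 held 4, MEF held 5 and Neuro2A held 1. In thinned wells the median number of members with a read was 2, 5 and 4 on the ES plates in order, 5 on the Neuro2A plate and 4 on the MEF plate. These counts were not tested.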
